A study of Homo sapiens with 12 samples.

Results

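The collagen genes were followed across 4 groups of ARPE-19, a human cell line that derives from the pigment epithelium of the retina (RPE). Members were the protein-coding lines of the count table whose symbol is COL, digits, A and digits, which gave 44 genes of 40591 lines with a symbol. WT names cells for which no open reading frame (ORF) is given. The GFP, GSTA4 and OSK groups are named for their ORFs: green fluorescent protein, the glutathione transferase GSTA4, and OSK, the usual short name of POU5F1 (OCT4), SOX2 and KLF4. The labels describe the cells as stable and collected after 4 days of ORF expression, and poly(A) RNA was sequenced from 3 libraries per group. They do not give the vector, the promoter, the number of clones or the cultures behind the 3 libraries of each group. P-values therefore measure the spread between these libraries, which may be technical, and an ORF and the line that carries it cannot be told apart. In bulk RNA a smaller number of expressing cells and less RNA per cell cannot be told apart either.

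Collagens are secreted proteins in which 3 chains wind into a triple helix. Fibrillar collagens form banded fibrils. Type IV collagen forms the network of basement membranes, type VII the anchoring fibrils beneath epithelia, and the fibril-associated collagens (FACIT) decorate fibrils. The RPE lays down part of Bruch's membrane, the layered matrix between it and the choroid, which holds several of these types. The type IV chain genes lie head to head in pairs and assemble into defined trimers: COL4A1 with COL4A2 chains in most basement membranes, COL4A3 with COL4A4 and COL4A5 in specialised ones, and COL4A5 with COL4A6 in others.

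Reads on lines with a symbol numbered from 12526826 to 16940870 per library. The floor of 3 reads, which a count of 0 allows, lay between 0.177 and 0.228 CPM (reads relative to the library's scaled total) and covers counting error only. The ORF genes followed the labels. GSTA4 averaged 415 ± 17.6 CPM (SD, n = 3) in its own line and at most 20.2 CPM in another group, while POU5F1, SOX2 and KLF4 averaged 778, 627 and 927 CPM in OSK and at most 1.57 CPM elsewhere. Among RPE markers, MITF, OTX2, PMEL and TYRP1 were detected, but RPE65 had 0 to 10 reads, and TTR, DCT and CRX were also too low to test. RPE markers summed to 2609 to 2834 CPM in WT libraries, 2374 to 2715 CPM in GFP, 1767 to 1841 CPM in GSTA4 and 1579 to 1642 CPM in OSK. KRT8 and KRT18 make up much of this sum and were the 2 markers that fell in GFP against WT (KRT8 from 1245 to 842 CPM), where 9 of the 13 tested rose. TTR had no read in any GSTA4 library, and CRX none in WT or GSTA4. Fibroblast and mesenchymal markers summed to 1123 to 1312 CPM in WT libraries, 1295 to 1446 CPM in GFP, 1250 to 1412 CPM in GSTA4 and 818 to 848 CPM in OSK, and the part of cell state or purity in the collagen results was not tested.

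WT replicate 1 stood apart from the other WT libraries, with a chi-square per degree of freedom of 15.8 and 18.6 against them, where they differed from each other by 2.58. In GFP replicate 1, 27349 genes with a symbol had a read, more than the 19488 to 22073 seen elsewhere. Where leaving out these libraries changed the call of a collagen gene, the value without them is given with that gene.

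Of the 44 collagen genes, 22 reached a mean of 1 CPM in at least 1 group, 17 reached 10 CPM and 10 reached 100 CPM. Tests ran on the 24 that passed the filter on low counts. Collagen genes took 0.505% ± 0.0389 of reads in WT, 0.582% ± 0.0538 in GFP, 0.384% ± 0.0056 in the GSTA4 line and 0.508% ± 0.00809 in OSK (SD, n = 3). The GSTA4 libraries, at 0.381% to 0.391%, lay below all others, of which the lowest was WT replicate 1 at 0.46%.

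**Figure D1:**
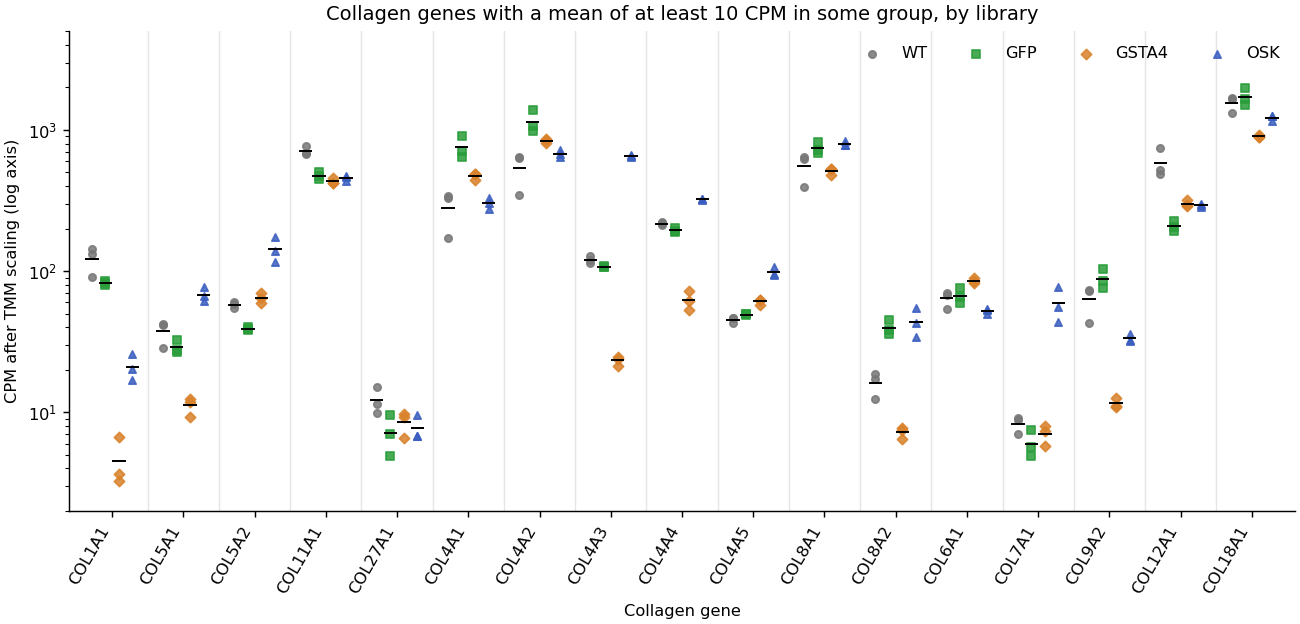
CPM of the 17 collagen genes that reached a mean of 10 CPM in some group, on a log axis, with a point per library and a bar at each group mean. COL4A3 spans 21.4 to 664 CPM over the 12 libraries, and COL18A1 is the highest gene in every group mean.

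COL18A1, the precursor of endostatin and a basement membrane proteoglycan core, ranked first in every group, also per kilobase of its principal transcript. It measured 1329, 1658 and 1678 CPM in WT replicates 1 to 3 and 1504, 1652 and 1966 CPM in GFP. In GSTA4 it measured 918, 896 and 889 CPM, and in OSK 1250, 1250 and 1154 CPM. All GSTA4 and OSK libraries lay below all WT and GFP libraries. With the length of the principal transcript, the order per kilobase after COL18A1 in WT was COL11A1 at 97.7, COL8A1 at 96.8, COL4A2 at 83.4 and COL12A1 at 49.8 CPM per kilobase. In GFP it was COL4A2 at 175, COL8A1 at 130 and COL4A1 at 114. In OSK, COL8A1 at 140 and COL4A2 at 104 were followed by COL4A3 at 81 CPM per kilobase, a gene outside the first 8 in the other groups. The order below COL18A1 depends on the length used. With the union of all annotated exons, COL4A2 stood at 59 CPM per kilobase in GFP, below COL8A1 at 79.1, and COL4A1 at 51.2, below COL11A1 at 52.1. In OSK COL4A3, at 71.9 CPM per kilobase, then came ahead of COL4A2 at 35.1.

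**Figure D2:**
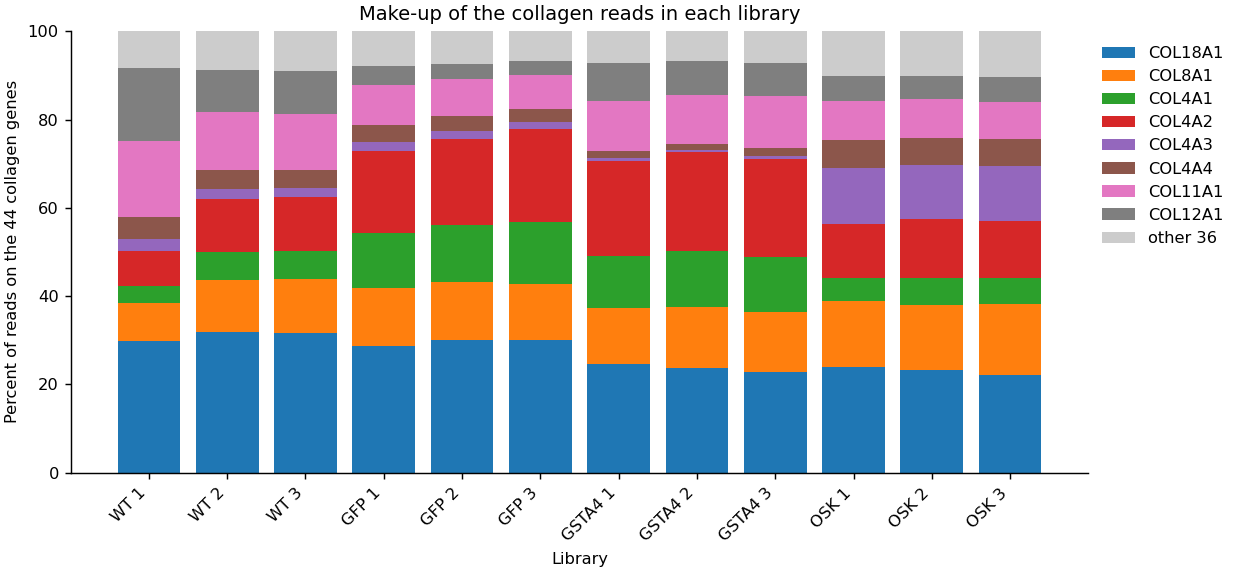
Percent of the reads on the 44 collagen genes taken by each of 8 genes and by the other 36, for each of the 12 libraries as stacked bars. COL4A3 takes 12.5% of collagen reads in OSK on average, against 0.611% in GSTA4.

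The make-up of the collagen reads differed between groups. The 6 type IV genes took 23.9% ± 3 in WT, 39% ± 1.35 in GFP, 38.3% ± 0.828 in the GSTA4 line and 39.2% ± 0.862 in OSK (SD, n = 3). The near-equal shares in GFP and OSK came from different chains. COL4A1 and COL4A2 took 13.1% and 19.7% of collagen reads in GFP, against 5.76% and 12.9% in OSK. COL4A3 and COL4A4 took 1.88% and 3.41% in GFP, against 12.5% and 6.15% in OSK. The 11 fibrillar genes took 19% ± 2.25 in WT, 11.1% ± 1 in GFP, 13.7% ± 0.331 in the GSTA4 line and 13.2% ± 0.244 in OSK.

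Against GFP, 16 of the 24 collagen genes tested changed in GSTA4 at an adjusted p under 0.05 (4 higher and 12 lower), where 29.2% of all 15179 genes tested passed, 14.7% higher and 14.6% lower. The median log2 fold change of the 24 was -0.49, against 0.01 over all genes tested. In OSK 18 changed (8 higher and 10 lower), where 45.9% of all genes passed (23.1% higher and 22.8% lower), with a median of 0.02 against -0.02. Between GFP and WT 11 changed (5 higher and 6 lower), against 22.2% of all genes (11% and 11.2%). The direct comparison of OSK with GSTA4 gave 15 (12 higher and 3 lower), against 47.8% of all genes (24.1% and 23.8%). Against WT, 17 changed in GSTA4 (6 higher and 11 lower), where 38.6% of all genes passed (19.7% and 19%), and 18 in OSK (9 in each direction), where 45.4% passed (22.7% in each direction). A difference among the 4 groups was called for 22 of the 24, against 66.9% of all genes, and COL11A2 and COL6A6 were the exceptions. Libraries of the groups compared did not overlap for 18 of the 24 in GSTA4 against GFP (42.3% of all genes), 17 in OSK against GFP (54.7%) and 13 in GFP against WT (34.6%). The same held for 16 in OSK against GSTA4 (58%), 18 in GSTA4 against WT (49%) and 18 in OSK against WT (53.5%). These comparisons share control libraries and are not independent of each other.

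**Figure D3:**
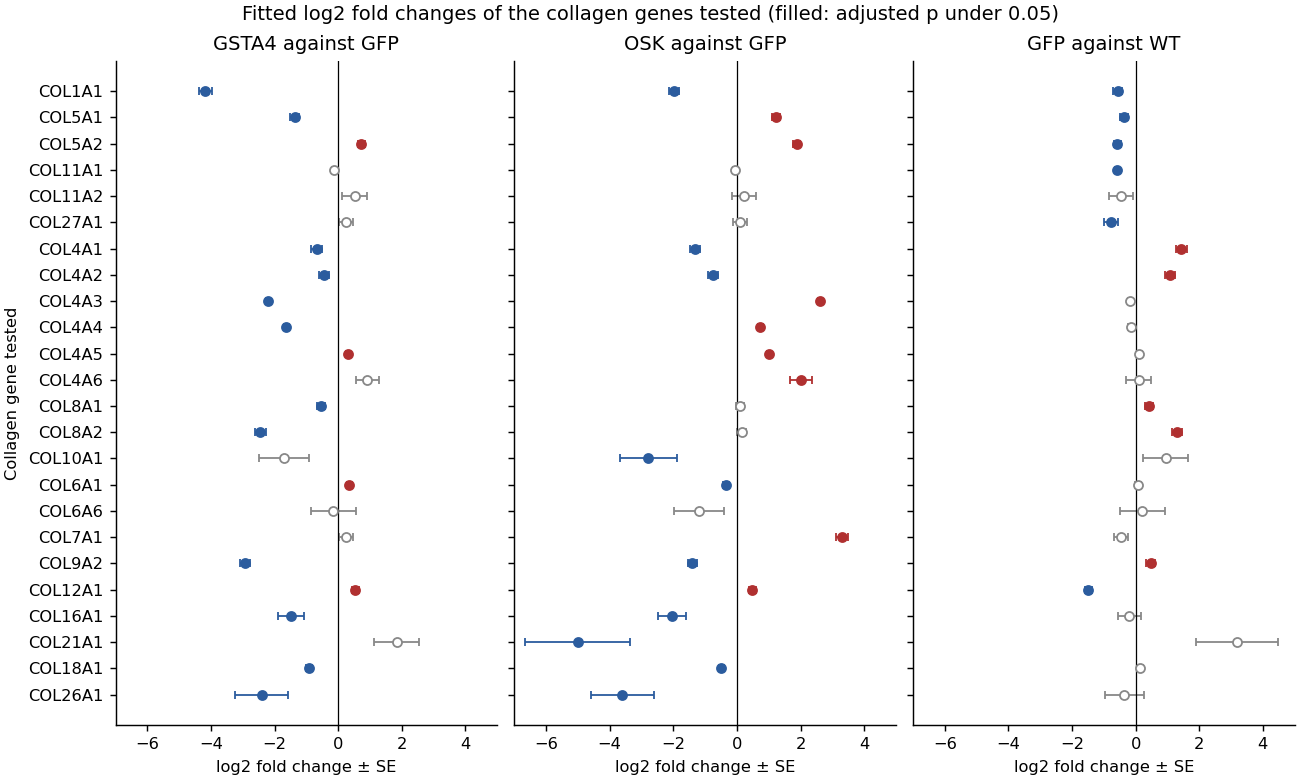
Fitted log2 fold change with its SE for each of the 24 collagen genes tested, in GSTA4 against GFP, OSK against GFP and GFP against WT, with filled points where the adjusted p was under 0.05 (red higher, blue lower). COL4A3, COL4A4 and COL5A1 lie on opposite sides of 0 in GSTA4 and OSK.

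In GSTA4, COL4A5 and COL6A1 were higher than GFP and WT, and COL1A1, COL5A1, COL4A3, COL4A4, COL8A2, COL9A2, COL16A1, COL18A1 and COL26A1 were lower than both, with the COL26A1 call against WT lost without GSTA4 replicate 1 (adjusted p 0.0593). In OSK, COL5A1, COL5A2, COL4A3, COL4A4, COL4A5, COL4A6 and COL7A1 were higher than both controls, and COL1A1, COL6A1, COL9A2, COL16A1, COL18A1 and COL26A1 were lower. The COL6A1 call in OSK against WT was lost without WT replicate 2 (adjusted p 0.0984), WT replicate 3 (adjusted p 0.0739) or OSK replicate 1 (adjusted p 0.0802). Of the tested members, 9 had their highest group mean in OSK, 6 in WT, 6 in GFP and 3 in GSTA4. The lowest was in GSTA4 for 9, OSK for 6, GFP for 5 and WT for 4. The same shares over all genes were not computed, so these counts are not read as particular to collagen genes.

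Setting aside COL21A1, which had no read in OSK, COL4A3 had the widest spread of group means among the tested members, 28.2-fold from GSTA4 to OSK. All 6 type IV genes were tested. Against GFP, 1 was higher and 4 lower in GSTA4 (29.2% of all genes passed), and 4 were higher and 2 lower in OSK (45.9%). The DNA before the starts of COL4A1 and COL4A2, and of COL4A3 and COL4A4, is shown because ratios of these partners differed between groups. That of COL4A5 and COL4A6, whose ratio per kilobase averaged 52.3 in WT and 25.3 in OSK, is not shown. Each stretch shown is from the RefSeq promoter table of GRCh38.p14, which matched 32 of the 44 members. Capitals mark, on either strand, the letters GGGCGG of a GC box and the boxes known by their letters as CACCC and, farther upstream in many promoters, CCAAT. The first is the whole 126 bases between the RefSeq starts of COL4A1 (minus strand) and COL4A2 (plus strand), chr13:110307158-110307283, read on the plus strand.
COL4A1-COL4A2: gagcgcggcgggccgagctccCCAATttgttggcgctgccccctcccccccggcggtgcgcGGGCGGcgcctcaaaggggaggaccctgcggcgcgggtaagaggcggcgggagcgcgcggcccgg
The RefSeq starts of COL4A4 and COL4A3 are separated by 418 bases. The 250 bases before COL4A3, chr2:227164374-227164623 on the plus strand, overlap those before COL4A4, chr2:227164206-227164455 on the minus strand.
COL4A3: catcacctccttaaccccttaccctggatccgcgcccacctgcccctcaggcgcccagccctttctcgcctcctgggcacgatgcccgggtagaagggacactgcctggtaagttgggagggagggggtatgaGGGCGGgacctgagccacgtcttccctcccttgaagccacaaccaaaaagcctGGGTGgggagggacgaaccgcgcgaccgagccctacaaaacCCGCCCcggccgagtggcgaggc
COL4A4: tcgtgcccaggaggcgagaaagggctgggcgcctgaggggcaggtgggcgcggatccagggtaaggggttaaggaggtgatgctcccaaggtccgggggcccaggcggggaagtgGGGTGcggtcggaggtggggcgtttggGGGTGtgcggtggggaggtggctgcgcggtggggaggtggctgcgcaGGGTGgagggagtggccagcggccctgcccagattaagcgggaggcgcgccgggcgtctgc

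The COL4A3 stretch holds 2 GC boxes and 1 CACCC box, and the COL4A4 stretch holds 0 GC boxes and 3 CACCC boxes. Over all 35116 promoter windows of 250 bases, 42.6% hold a GC box, 54.7% a CACCC box and 32% a CCAAT box. The stretch between COL4A1 and COL4A2 holds 1 GC box and 1 CCAAT box, which occur in 34.6% and 21.1% of windows shortened to 126 bases. An octamer, ATTTGCAT, which 1.63% of windows hold, was also searched on both strands. So was the SOX-type motif ACAAT, which 24.6% of windows hold. Neither set of letters is in these stretches. The letters TATAAA of a TATA box, which 10.7% of windows hold, were searched too and are also absent from them. A match describes the letters only.

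COL4A3 (chr2:227164565-227314792, GENCODE 29 on GRCh38), a chain of the specialised basement membrane trimer, moved in opposite directions in the ORF lines. It measured 128, 119 and 115 CPM in WT replicates 1 to 3 and 109, 106 and 107 CPM in GFP. In GSTA4 it measured 23.7, 21.4 and 24.8 CPM, and in OSK 664, 656 and 647 CPM. No library of GSTA4 or OSK overlapped any library of another group. The log2 fold change against GFP was -2.20 in GSTA4 (SE 0.0683, adjusted p 4.77e-15) and 2.61 in OSK (SE 0.0617, adjusted p 7.33e-18), and OSK exceeded GSTA4 by 4.81 (SE 0.0709, adjusted p 2.23e-21).

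COL4A4 (chr2:227002711-227164453), its partner on the other strand, moved the same way but by other amounts. It measured 221, 218 and 211 CPM in WT and 201, 188 and 194 CPM in GFP. In GSTA4 it measured 61.9, 53.4 and 71.7 CPM, and in OSK 326, 325 and 318 CPM, so that both lines lay clear of the controls and of each other. The log2 fold change against GFP was -1.64 in GSTA4 (SE 0.077, adjusted p 1.66e-12) and 0.74 in OSK (SE 0.0725, adjusted p 4.61e-08).

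Per kilobase, COL4A3 stood at 0.687 ± 0.0225 of COL4A4 in WT, 0.684 ± 0.0147 in GFP, 0.466 ± 0.0344 in the GSTA4 line and 2.51 ± 0.0135 in OSK (SD of the ratio, n = 3). These ratios use principal transcripts, and another length would scale a ratio by the same factor in every group. The OSK ratios, 2.49 to 2.52, thus lay above 1, and those of the 9 other libraries, 0.428 to 0.713, below it. COL4A3 shares 120 exonic bases (1.32% of its exons) with an antisense gene, and the strand setting of the counting is not given in the sources used here.

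COL4A5, on chromosome X, completes this trimer. It measured 46.3, 43 and 46.3 CPM in WT, 49.4, 49.4 and 48.7 CPM in GFP, 62.9, 57.6 and 62.3 CPM in GSTA4 and 95.4, 107 and 94.5 CPM in OSK. Its log2 fold change against GFP was 0.31 in GSTA4 (SE 0.0702, adjusted p 0.00211) and 1.01 in OSK (SE 0.0691, adjusted p 1.96e-10). In GSTA4 it therefore rose while COL4A3 and COL4A4 fell, and the COL4A3 to COL4A5 ratio per kilobase was 0.303 ± 0.0115, against 1.73 ± 0.0223 in GFP and 5.28 ± 0.35 in OSK.

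COL4A6, head to head with COL4A5, was far lower. It measured 1.18, 0.66 and 0.943 CPM in WT, 1.06, 1.29 and 0.679 CPM in GFP and 1.59, 1.5 and 2.61 CPM in GSTA4. It averaged 0.928 ± 0.261 CPM in WT, 1.01 ± 0.308 in GFP, 1.9 ± 0.618 in the GSTA4 line and 4.11 ± 0.857 in OSK (SD, n = 3). The 3 OSK libraries, at 3.13, 4.49 and 4.71 CPM, lay above all others, with a log2 fold change against GFP of 2.02 (SE 0.341, adjusted p 5.74e-05). In GSTA4 the fitted change of 0.91 (SE 0.364, adjusted p 0.0663) did not pass against GFP. Against WT the GSTA4 change of 1.01 (SE 0.362, adjusted p 0.0314) passed. That call was lost without WT replicate 2 (adjusted p 0.113), WT replicate 3 (adjusted p 0.0695) or GSTA4 replicate 3 (adjusted p 0.19).

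**Figure D4:**
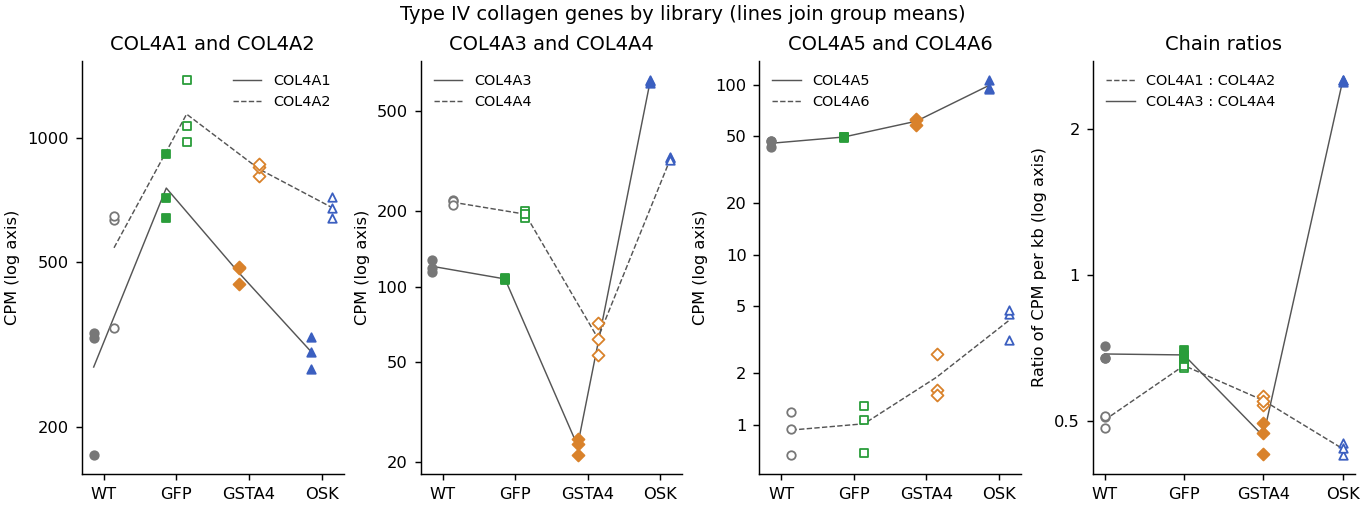
CPM of the 6 type IV genes in each library, on log axes, by head-to-head pair, and the ratios of 2 pairs per kilobase, with lines joining group means. The COL4A3 to COL4A4 ratio is 2.49 to 2.52 in OSK and 0.428 to 0.713 in the other libraries.

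COL4A1 and COL4A2, the common type IV chains, were highest in GFP. COL4A1 (chr13:110148963-110307233) measured 171, 329 and 338 CPM in WT, 640, 713 and 912 CPM in GFP, 443, 487 and 485 CPM in GSTA4 and 276, 329 and 304 CPM in OSK. GFP lay above every other group, and WT overlapped OSK. The log2 fold change was 1.44 in GFP against WT (SE 0.168, adjusted p 5.62e-06), -0.68 in GSTA4 against GFP (SE 0.165, adjusted p 0.00363) and -1.32 in OSK against GFP (SE 0.167, adjusted p 1.69e-06).

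COL4A2 (chr13:110305812-110513209) measured 347, 633 and 646 CPM in WT, 975, 1064 and 1378 CPM in GFP, 806, 847 and 865 CPM in GSTA4 and 638, 719 and 678 CPM in OSK. It moved with COL4A1, by 1.07 in GFP against WT (SE 0.156, adjusted p 6e-05) and by -0.75 in OSK against GFP (SE 0.155, adjusted p 0.000485). OSK was below GSTA4 by -0.31 without overlap, which did not pass (adjusted p 0.109). This difference passed without WT replicate 1 (adjusted p 0.00141) and in a fit of the 6 libraries compared (adjusted p 4.48e-06). The change of -0.44 in GSTA4 against GFP (SE 0.154, adjusted p 0.0361) was lost without GFP replicate 3 (-0.29, adjusted p 0.196), without each GSTA4 library in turn (adjusted p 0.0776 to 0.115) and with DESeq2 (adjusted p 0.111).

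Because GFP was high, the direction for these chains depends on the control. Against WT, COL4A1 and COL4A2 were higher in GSTA4 by 0.76 (SE 0.166, adjusted p 0.00112) and 0.63 (SE 0.155, adjusted p 0.00284). Without WT replicate 1 and GFP replicate 1, these values were 0.50 and 0.39, still past the threshold. In OSK against WT the changes of 0.12 (adjusted p 0.589) and 0.32 (adjusted p 0.0951) did not pass, although that of COL4A2 passed without WT replicate 2 (adjusted p 0.0387) or WT replicate 3 (adjusted p 0.0255). The COL4A1 to COL4A2 ratio per kilobase was 0.503 ± 0.016 in WT, 0.651 ± 0.00709 in GFP, 0.552 ± 0.0128 in the GSTA4 line and 0.439 ± 0.0123 in OSK, with no overlap between groups.

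Of the 6 fibrillar genes tested, 1 was higher and 2 lower in GSTA4 (29.2% of all genes passed) and 2 were higher and 1 lower in OSK (45.9%), each against GFP, and 5 were lower in GFP than in WT (22.2%). COL1A1 (chr17:50183289-50201632), which encodes the alpha 1 chain of type I collagen, fell in both ORF lines. It measured 91.5, 133 and 143 CPM in WT, 82.8, 84.4 and 80.2 CPM in GFP, 3.24, 3.67 and 6.66 CPM in GSTA4 and 25.7, 20.1 and 16.8 CPM in OSK. The groups did not overlap, in the order WT, GFP, OSK, GSTA4. The log2 fold change against GFP was -4.19 in GSTA4 (SE 0.204, adjusted p 2.96e-12) and -1.98 in OSK (SE 0.165, adjusted p 3.87e-09), and OSK exceeded GSTA4 by 2.21 (SE 0.224, adjusted p 5.44e-08). GFP was below WT by -0.57 (SE 0.147, adjusted p 0.00875), a call lost with DESeq2 (adjusted p 0.11). COL1A2, the partner chain of the usual type I trimer, had 0 to 9 reads per library and was not tested.

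COL5A1 and COL5A2 encode chains of type V collagen, a regulator of fibril diameter. COL5A1 measured 28.7, 41.4 and 42.4 CPM in WT, 26.7, 27.6 and 32.4 CPM in GFP, 9.27, 11.8 and 12.4 CPM in GSTA4 and 77, 61.3 and 66.3 CPM in OSK. It moved in opposite directions, by -1.38 in GSTA4 (SE 0.149, adjusted p 4.76e-07) and 1.24 in OSK (SE 0.129, adjusted p 1.13e-07) against GFP, and neither line overlapped a control library. The change of -0.37 in GFP against WT (SE 0.132, adjusted p 0.0477) was lost in most fits that left out a library, for instance without WT replicate 2 (-0.30, adjusted p 0.154) or GFP replicate 1 (-0.32, adjusted p 0.149).

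COL5A2 measured 60.5, 58.7 and 54.6 CPM in WT, 40.2, 38 and 38.7 CPM in GFP, 69.9, 59.1 and 64.2 CPM in GSTA4 and 116, 139 and 174 CPM in OSK. Against GFP it rose by 0.72 in GSTA4 (SE 0.109, adjusted p 3.34e-05) and by 1.88 in OSK (SE 0.107, adjusted p 1.17e-11). GSTA4 and WT overlapped, and their difference of 0.15 (SE 0.105) did not pass, with an adjusted p of 0.266. The COL5A1 to COL5A2 ratio per kilobase was 0.147 ± 0.0313 in GSTA4, below the 0.319 to 0.698 of the other libraries.

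COL11A1, a type XI chain of cartilage and vitreous fibrils, differed mainly between WT and the rest. It measured 766, 687 and 675 CPM in WT, with 468, 451 and 501 CPM in GFP, 424, 421 and 453 CPM in GSTA4 and 468, 465 and 433 CPM in OSK. GFP was below WT by -0.58 (SE 0.064, adjusted p 2.53e-06), whereas against GFP the changes of -0.13 in GSTA4 (SE 0.0641, adjusted p 0.143) and -0.06 in OSK (SE 0.064, adjusted p 0.501) did not pass. Without WT replicate 1 and GFP replicate 1, the GSTA4 change was -0.15 and passed (adjusted p 0.0331). COL11A2 had 31, 28 and 19 reads in WT, 24, 14 and 13 in GFP, 33, 23 and 21 in GSTA4 and 26, 21 and 16 in OSK, and it passed in no comparison.

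COL27A1, a fibrillar chain of cartilage, measured 15.2, 9.83 and 11.4 CPM in WT, 9.57, 4.94 and 7.06 CPM in GFP, 9.65, 9.29 and 6.6 CPM in GSTA4 and 9.52, 6.76 and 6.75 CPM in OSK. Its fall of -0.76 in GFP against WT (SE 0.218, adjusted p 0.016) was lost without WT replicate 1 (adjusted p 0.0619) or GFP replicate 2 (adjusted p 0.106). Its fall in OSK against WT (-0.66, SE 0.215, adjusted p 0.0153) was lost without WT replicate 1 (adjusted p 0.0687), OSK replicate 2 (adjusted p 0.0715) or OSK replicate 3 (adjusted p 0.0703). In GSTA4 against WT, -0.51 did not pass (adjusted p 0.0631) but passed without WT replicate 2 (adjusted p 0.0345), GFP replicate 1 (adjusted p 0.0461) or GFP replicate 2 (adjusted p 0.0434).

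The short-chain collagens COL8A1 and COL8A2, chains of type VIII collagen in Descemet's and vessel wall matrix, fell by unlike amounts in GSTA4 against GFP. COL8A1 measured 392, 618 and 646 CPM in WT, 686, 724 and 823 CPM in GFP, 478, 525 and 529 CPM in GSTA4 and 785, 780 and 833 CPM in OSK. It fell by 0.54 in GSTA4 against GFP (SE 0.12, adjusted p 0.00179). The 0.10 in OSK against GFP (SE 0.12, adjusted p 0.511) did not pass. The rise of 0.43 in GFP against WT (SE 0.12, adjusted p 0.014) was lost without GFP replicate 3 (adjusted p 0.0664) and in a fit of the 6 libraries compared (adjusted p 0.0573), and was 0.23 without WT replicate 1 (adjusted p 0.0194). GSTA4 against WT, at -0.11 (adjusted p 0.495), passed at -0.31 without WT replicate 1 and GFP replicate 1 (adjusted p 2.4e-05).

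COL8A2 measured 12.4, 17.2 and 18.6 CPM in WT, 35.8, 38.5 and 44.8 CPM in GFP, 7.49, 6.45 and 7.76 CPM in GSTA4 and 34.3, 54.4 and 43 CPM in OSK. The GSTA4 libraries were the lowest, and GFP and OSK overlapped. Its log2 fold change was 1.30 in GFP against WT (SE 0.152, adjusted p 5.29e-06), -2.45 in GSTA4 against GFP (SE 0.169, adjusted p 5.14e-10) and 0.15 in OSK against GFP (SE 0.141, adjusted p 0.423). COL8A1 stood at 58.2 ± 7.55 times COL8A2 per kilobase in GSTA4, against 15.4 ± 0.316 in GFP and 27.9 ± 1.83 in WT. COL10A1, the hypertrophic cartilage chain, had 12, 5 and 7 reads in WT, 16, 24 and 1 in GFP, 4, 1 and 8 in GSTA4 and 3, 0 and 3 in OSK. It was lower in OSK than in GFP, with a fitted change of -2.78 (SE 0.897, adjusted p 0.0152). The groups overlapped, and the call was lost without GFP replicate 2 (adjusted p 0.112) or OSK replicate 2 (adjusted p 0.0779).

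COL7A1 (chr3:48564073-48595267), the chain of anchoring fibrils, was highest in OSK. It measured 8.76, 9.17 and 7.01 CPM in WT, 7.52, 4.87 and 5.63 CPM in GFP, 7.36, 5.77 and 7.97 CPM in GSTA4 and 77.6, 55.5 and 43.9 CPM in OSK. The lowest OSK library was several-fold above the highest of the others. The log2 fold change in OSK was 3.30 against GFP (SE 0.191, adjusted p 1.42e-11), 2.83 against WT (SE 0.18, adjusted p 4.8e-11) and 3.06 against GSTA4 (SE 0.185, adjusted p 1.83e-11). The 0.24 in GSTA4 against GFP (SE 0.225, adjusted p 0.466) did not pass. The 250 bases before its start, chr3:48595330-48595579 on the minus strand, are shown because its rise against GFP was the largest fitted among the collagen genes, with the same capitals as above.
COL7A1: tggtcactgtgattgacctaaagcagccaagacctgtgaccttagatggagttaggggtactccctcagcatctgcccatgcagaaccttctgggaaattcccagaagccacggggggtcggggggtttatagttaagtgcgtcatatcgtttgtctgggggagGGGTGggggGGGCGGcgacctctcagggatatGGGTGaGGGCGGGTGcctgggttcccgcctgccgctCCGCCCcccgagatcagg
The stretch holds 3 GC boxes and 3 CACCC boxes, of which 1 of each overlap. It also holds 1 TATA box, on the other strand and not capitalised. The octamer and the SOX-type motif are absent from it.

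COL6A1, a chain of type VI beaded filaments, measured 54.1, 70.2 and 67.6 CPM in WT, 59.1, 65.6 and 75.8 CPM in GFP, 85.3, 81.7 and 89.4 CPM in GSTA4 and 49.6, 53 and 54.3 CPM in OSK. It rose by 0.35 in GSTA4 against GFP (SE 0.093, adjusted p 0.00662), a call that ended narrowly without GFP replicate 1 (0.27, adjusted p 0.0502). In OSK it fell by 0.35 (SE 0.0951, adjusted p 0.00446). Its usual partner chains were near the floor, COL6A2 with 0 to 11 reads and COL6A3 with 0 to 15 reads per library. COL6A6 had 2 to 24 reads and passed in no comparison.

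Of 10 FACIT genes 4 were tested. COL9A2, a type IX chain that coats cartilage fibrils, fell in both ORF lines. It measured 43.2, 72.8 and 73.7 CPM in WT, 76, 84.7 and 104 CPM in GFP, 11, 12.7 and 11.1 CPM in GSTA4 and 32, 35.8 and 32.3 CPM in OSK. GSTA4 was lowest and OSK next, with no overlap with the controls. Its log2 fold change against GFP was -2.93 in GSTA4 (SE 0.167, adjusted p 3e-11) and -1.40 in OSK (SE 0.148, adjusted p 1.32e-07). The rise of 0.48 in GFP against WT (SE 0.142, adjusted p 0.0185) was lost without WT replicate 1 (0.26, adjusted p 0.0527), without GFP replicate 3 (adjusted p 0.114), in a fit of the 6 libraries compared (adjusted p 0.0605) and with DESeq2 (adjusted p 0.0802). Chondrocyte markers summed to 1.26 to 3.19 CPM per library, and ACAN and COMP had no read in WT, GSTA4 or OSK.

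COL12A1, a stress-bearing FACIT chain, measured 743, 491 and 518 CPM in WT, 228, 191 and 204 CPM in GFP, 318, 288 and 295 CPM in GSTA4 and 297, 285 and 293 CPM in OSK. All lines with an ORF were below WT, and GFP was lowest. Against GFP it rose by 0.53 in GSTA4 (SE 0.108, adjusted p 0.000834) and by 0.49 in OSK (SE 0.108, adjusted p 0.000902), while against WT it fell in both lines (adjusted p 5.43e-07 in GSTA4 and 1.48e-07 in OSK). GFP itself was below WT by -1.49 (SE 0.109, adjusted p 1.11e-08).

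COL16A1 had 53, 24 and 35 reads in WT, 31, 21 and 35 in GFP, 10, 12 and 10 in GSTA4 and 5, 13 and 4 in OSK. Against GFP it fell in GSTA4 (-1.49, SE 0.418, adjusted p 0.0106) and OSK (-2.05, SE 0.442, adjusted p 0.00072). COL21A1 had 11, 17 and 14 reads in GSTA4 and 0 in each OSK library. In WT it had 0, 1 and 0 reads, and in GFP 9, 1 and 1. The GSTA4 mean was 5.03 times the floor of the WT libraries (adjusted p 0.000806 for GSTA4 against WT). It was 4.78 times the floor of the OSK libraries (adjusted p 0.000256 for OSK against GSTA4). Calls against GFP turned on GFP replicate 1. Without it COL21A1 passed in GSTA4 (3.65, adjusted p 0.00573, against 0.0587 with it) and no longer passed in OSK (adjusted p 0.163, against 0.0179 with it, and 0.0506 without OSK replicate 2).

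COL18A1, described above by level, fell by 0.92 in GSTA4 (SE 0.09, adjusted p 1.07e-07) and by 0.49 in OSK (SE 0.0894, adjusted p 0.000142) against GFP, and OSK exceeded GSTA4 by 0.43 (SE 0.0895, adjusted p 0.000406). The 0.14 in GFP against WT (SE 0.0891) did not pass, with an adjusted p of 0.301. Of its exonic bases, 16.4% overlap SLC19A1 on the other strand, so reads of that gene may be counted there. COL26A1 had 19, 8 and 12 reads in WT, 14, 3 and 10 in GFP, 0, 2 and 3 in GSTA4 and 2, 0 and 0 in OSK. It was lower than GFP in GSTA4 (-2.41, SE 0.84, adjusted p 0.0358) and in OSK (-3.60, SE 0.985, adjusted p 0.00513), with counts near the floor. The GSTA4 call was lost without GFP replicate 1 (adjusted p 0.17), GFP replicate 3 (adjusted p 0.0746) or each GSTA4 library in turn (adjusted p 0.0518 to 0.156).

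The 20 collagen genes not tested included COL2A1 and COL3A1, the main chains of cartilage and of reticular fibrils, with at most 10 and 2 reads in a library. All 4 transmembrane collagens were among them. Summed over the 20, GFP replicate 1 held 198 reads and the other 11 libraries 16 to 45. COL17A1, the hemidesmosome collagen, had 40 reads in GFP replicate 1 and at most 6 elsewhere. Reads occurred on 43 of the 44 members in GFP replicate 1 and on 29 to 38 in the other libraries.

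**Figure D5:**
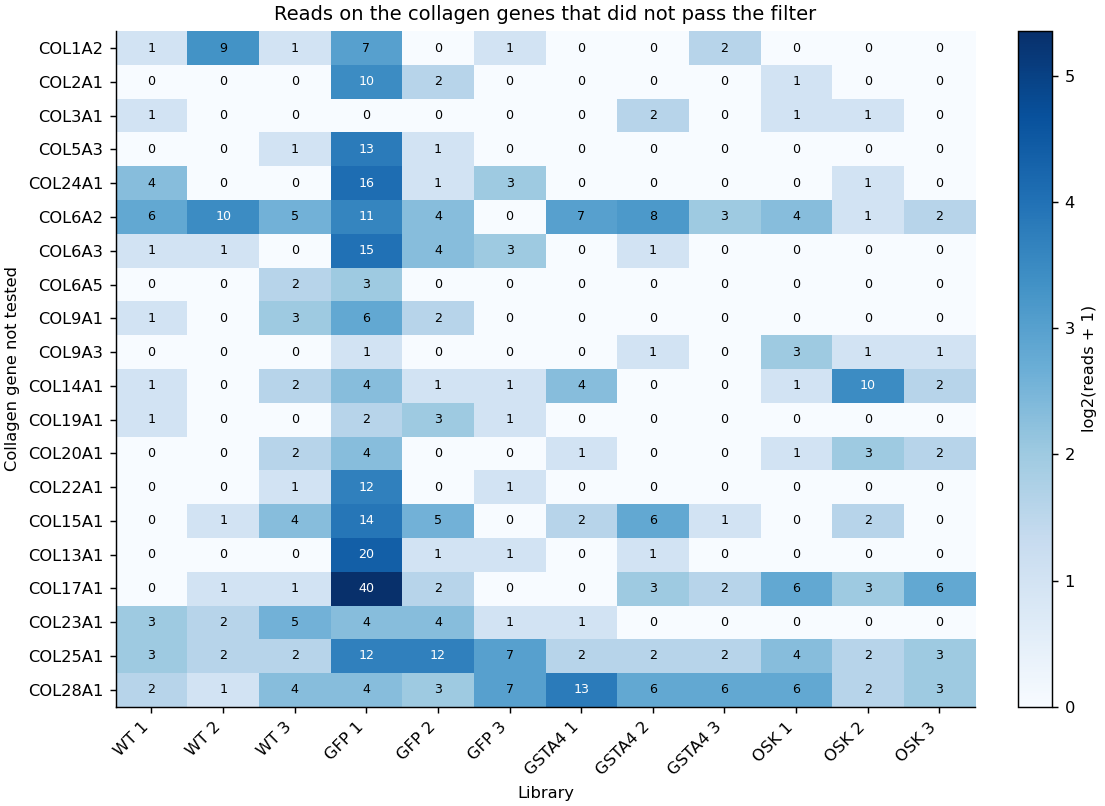
Reads on the 20 collagen genes that did not pass the filter, with the count in each cell, a row per gene, a column per library and colour as log2(reads + 1). GFP replicate 1 holds 198 of these reads, against 16 to 45 in each other library.

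Collagen chains are hydroxylated, folded and glycosylated in the endoplasmic reticulum, exported in large carriers and trimmed of their propeptides outside the cell. Of 37 genes listed for these steps, 34 were tested. In GSTA4 against GFP 5 were higher and 10 lower, with a median log2 fold change of -0.03, where 29.2% of all genes passed (14.7% higher and 14.6% lower). ADAMTS3, a procollagen N-proteinase, fell from 17.9 to 6.71 CPM (-1.41, SE 0.145, adjusted p 2.14e-07). The prolyl 4-hydroxylase subunits P4HA1 and P4HA2 fell, with changes of -0.77 (SE 0.101) and -0.49 (SE 0.0717). TLL1, a procollagen C-proteinase, rose from 0.983 to 5.48 CPM (2.45, SE 0.389, adjusted p 6.45e-05).

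In OSK against GFP 17 were higher and 7 lower, with a median of 0.21, where 45.9% of all genes passed (23.1% higher and 22.8% lower). BMP1, the main procollagen C-proteinase, measured 132, 143 and 136 CPM in GFP and 489, 448 and 450 CPM in OSK (1.75, SE 0.0659, adjusted p 1.37e-14). P4HB, the beta subunit of prolyl 4-hydroxylase, rose by 0.83 (SE 0.0718) and the prolyl 3-hydroxylase P3H1 by 0.82 (SE 0.0748). Not all steps moved together: the collagen chaperone SERPINH1 fell by 0.42 (SE 0.108, adjusted p 0.00334) and P4HA2 by 0.44 (SE 0.0714). By step, folding genes numbered 9 higher and 5 lower of 19 tested, export genes 5 and 0 of 7, and propeptide genes 3 and 2 of 8, beside 45.9% of all genes. In GSTA4 the same counts were 3 and 7, 1 and 1, and 1 and 2, beside 29.2%, and the export share of 28.6% was near that background.

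Directly compared, OSK exceeded GSTA4 for 19 of the 34 processing genes and was lower for 5, where 47.8% of all genes passed. In GFP against WT 3 were higher and 7 lower, where 22.2% of all genes passed, and 5 to 9 passed in fits that left out a library. Against WT, GSTA4 had 6 higher and 16 lower (38.6% of all genes passed), and OSK 17 and 9 (45.4%).

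All 4 uptake and breakdown genes that were tested, of 8 listed, changed against GFP in both lines, where 29.2% of all genes passed in GSTA4 and 45.9% in OSK. CTSK, the collagen-cleaving cathepsin K, measured 150, 161 and 157 CPM in GFP, 49.8, 53.9 and 51.9 CPM in GSTA4 and 111, 115 and 129 CPM in OSK. MMP2, a gelatinase, fell from 61.5 to 5.14 CPM in GSTA4 (-3.56, SE 0.176, adjusted p 3.51e-12) and to 33 CPM in OSK (-0.90, SE 0.141, adjusted p 2.26e-05). MMP14, a membrane-bound collagenase, fell in both (-0.40, SE 0.0655, and -0.77, SE 0.0659), and MRC2, an endocytic collagen receptor, rose by 0.72 (SE 0.197) and 0.77 (SE 0.197). Of 7 fibril-associated proteoglycans only PRELP was tested, and it rose in OSK from 0.61 to 4.15 CPM (2.77, SE 0.419, adjusted p 1.61e-05).

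Marker genes moved beside these results. Of 13 RPE markers tested, 1 was higher and 8 lower in GSTA4, 1 and 11 in OSK, each against GFP, and 9 were higher and 2 lower in GFP against WT. Of all genes, 29.2%, 45.9% and 22.2% passed in these comparisons. PMEL fell in both (-1.82, SE 0.133, and -1.69, SE 0.132). Of 7 fibroblast and mesenchymal markers, 3 were higher and 3 lower in GSTA4, and 6 were lower in OSK. The contractile gene TAGLN fell in both (-3.56, SE 0.284, and -2.18, SE 0.253). Of 2 chondrocyte markers tested, MATN3 fell in OSK by 2.38 (SE 0.63, adjusted p 0.00406), and in GSTA4 SNORC at -0.73 (adjusted p 0.24) and MATN3 at 0.18 (adjusted p 0.818) did not pass. The epithelial marker CDH1, the only 1 of 4 tested, fell from 16 CPM in GFP to 0.215 CPM in GSTA4 and 0.525 CPM in OSK. GFP was itself above WT for CDH1 by 2.28, and the changes against WT were -3.94 in GSTA4 and -2.635 in OSK. The summed epithelial markers ran from 2.24 to 5.3 CPM in WT, 11.7 to 20.4 CPM in GFP and 0.0635 to 1.05 CPM in GSTA4 and OSK. The part of these shifts in the collagen differences was not tested.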

How the data were processed

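Poly(A) RNA of 12 libraries was measured, and the authors deposited their counts of reads for each gene, unnormalized whole numbers whose total differs between libraries. STAR 2.7.1a and featureCounts 1.6.2, with human and mouse builds, are named in the submitters' processing notes without a role. The annotation release and strand setting are not given in the sources used here. Lines without a symbol (20014 lines, 0.485% to 0.822% of reads) were left out.

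Counts were scaled by TMM and tested with edgeR 4.0.16 (R 4.3.3, limma 3.58.1) by the quasi-likelihood test. All 12 libraries entered 1 fit with a mean per group, after filterByExpr with the groups, which kept 15179 genes. P-values are two-sided and adjusted by Benjamini-Hochberg over all genes tested, with 0.05 as threshold. Log2 fold changes are fitted values with a prior count of 0.125, their SE is the change over the root of F, and levels are TMM-scaled CPM, with an SD over the 3 libraries. The common biological coefficient of variation was 7.91%. For COL21A1, whose WT and OSK libraries all lay at or under 3 reads, the GSTA4 mean is given as a multiple of that floor. These multiples leave out the error of the GSTA4 mean and are not strict lower bounds. Lengths and coordinates come from GENCODE 29 on GRCh38, matched by symbol, and promoters from RefSeq on GRCh38.p14. The fit was tested on simulated data.

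The members and lists were chosen with earlier results of these data known. Members described with every library were those with a mean of at least 10 CPM in a group, the 3 largest rises and falls per contrast, and their tested partner chains. Of each other list (processing steps, proteoglycans, uptake and breakdown, and RPE, fibroblast and mesenchymal, chondrocyte and epithelial markers) counts are given with up to 3 genes of lowest adjusted p. SERPINH1, MRC2, COL2A1, COL3A1 and COL17A1 were named after their values were seen. Scaling was varied (RLE, or the library size by itself), as was the filter (none, or a mean over 1 CPM). DESeq2 1.42.0, a replicate block, fits of 6 libraries, a threshold on log2 fold change of 1 and leaving out each library were also tried. Leaving out WT replicate 1 and GFP replicate 1 together was added after seeing the data.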

Additional observations from a re-analysis of the deposited data

How the results depend on the processing

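No call of a named collagen gene turned sign under any alternative run. Changes that did not pass in the analysis as reported could cross 0, such as COL8A1 in GSTA4 against WT (-0.31 to 0.02) and COL4A1 in OSK against WT (-0.14 to 0.28). Of 2855 refits of named genes, 2721 kept their side of the threshold, 106 lost it (45 when the minimum fold change is set aside) and 28 gained it. A test against a minimum log2 fold change of 1 kept 5 collagen genes in GSTA4 against GFP, 6 in OSK against GFP, 1 in GFP against WT, 8 in OSK against GSTA4, 6 in GSTA4 against WT and 8 in OSK against WT. In the same order it kept 257, 696, 94, 976, 413 and 903 of all genes. With each library left out in turn, the collagen counts were 15 to 17, 16 to 19, 9 to 12, 15 to 16, 16 to 18 and 17 to 18, and 21 to 23 for a difference among the 4 groups. Over all genes these ranges were 3459 to 5062, 6188 to 7569, 2267 to 3297, 6452 to 7727, 4742 to 6020 and 6017 to 7052. For a difference among the 4 groups the range was 9541 to 10212. Processing genes in GFP against WT numbered 10, 5 to 9 with a library left out (5 without GFP replicate 2) and 6 without WT replicate 1 and GFP replicate 1. Those 2 libraries left out together gave 17 collagen genes in GSTA4 and 15 in OSK against GFP. Counts over all genes in that fit are not given here, so the move is not read as particular to collagen genes. Library size alone moved the share of higher calls in OSK against GFP from 50.4% to 40% of all genes. Replicate numbers did not pair the samples: correlations of same-numbered deviations ran from -0.0282 to 0.183, and 2 of 12 libraries correlated best with their own number. The replicate block gave 16, 18, 12, 16, 18 and 19 collagen genes in that order, and 21 among the 4 groups. Counts over all genes with the block are not given here, so these are not read as particular to collagen genes. The block brought COL4A2 in OSK against WT past the threshold (0.36, adjusted p 0.00962). DESeq2 gave no F test. Genes that an alternative removed, or to which DESeq2 gave no adjusted p, have no value there. Counts near the floor limit COL10A1, COL21A1 and COL26A1.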

Other observations

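Antisense transcripts named after collagen genes are outside the 44 members, and 4 of them were tested. COL18A1-AS1 averaged 2.6 CPM in WT libraries, 5.9 CPM in GFP, 1.43 CPM in GSTA4 and 1.66 CPM in OSK, with a log2 fold change against GFP of -2.01 in GSTA4 (SE 0.346, adjusted p 0.000152) and -1.82 in OSK (SE 0.34, adjusted p 0.000171). COL18A1-AS2 averaged 0.702, 1.89, 0.589 and 0.336 CPM in the same order and fell against GFP in both lines. GFP itself was above WT for COL18A1-AS1 (1.16, adjusted p 0.0128) and COL18A1-AS2 (1.41, adjusted p 0.0171). Against WT, COL18A1-AS1 did not pass in GSTA4 (adjusted p 0.0726) or OSK (adjusted p 0.143). Nor did COL18A1-AS2 (adjusted p 0.672 in GSTA4 and 0.101 in OSK). COL4A2-AS2 had 2 to 3 reads per library in WT and 12 to 22 in GFP, a fitted rise of 2.63 (SE 0.561, adjusted p 0.00222). It fell in OSK against GFP by 2.39 (SE 0.551, adjusted p 0.00131). COL4A2-AS1 fell in OSK against GFP from 1.58 to 0.51 CPM (adjusted p 0.0279) and did not pass in GSTA4 (-0.89, adjusted p 0.235). The strand setting of the counting is not given in the sources used here. Reads on exonic bases that these lines share with the collagen genes opposite them therefore cannot be told apart. In the annotation used for lengths, COL4A2 shares 81 exonic bases (0.42% of its exons) with COL4A2-AS1 and 14 (0.0726%) with COL4A2-AS2. COL18A1 shares exonic bases there with SLC19A1 only. The annotation used for counting is not given and may differ, and the part of each antisense line that is shared was not computed.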
